A study of Homo sapiens with 8 samples.

Results

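The regions described here are stretches of open chromatin that opened in mesoderm and were still open in cardiomyocytes. They were chosen by presence alone: a region had to be absent from embryonic stem cells (ESC) at day 0 and present at each of the later stages, mesoderm (MES) at day 2, cardiac progenitors (CP) at day 5 and cardiomyocytes (CM) at day 14. Of 138383 merged regions on chromosomes 1 to 22 and X, 2321 (1.68%) met this rule, and they are called kept regions. Accessibility had been measured by ATAC-seq, in which a transposase inserts sequencing adapters into DNA that is not covered by nucleosomes, in 2 replicate libraries at each of 4 stages. A stage's set of regions was the overlap of its 2 peak lists, the 4 sets were merged, and an overlap of 1 bp counted as presence. MES-only regions (21963) opened at the same stage and were present at no other, MES-CP regions (7177) were lost by CM, CP-CM regions (2577) opened 1 stage later and were kept, and 28155 regions were present at all 4 stages.

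All cells came from 1 established human line, the embryonic stem cells RUES2, so the stages differ in time and medium and not in genotype. The ESC cells were collected at day 0, before the change to differentiation medium, and had by then been primed in E8 medium with CHIR-99021, a compound that turns on Wnt signalling. From day 0 the medium was RPMI with albumin and ascorbic acid plus CHIR-99021, and MES cells were taken from it at day 2. XAV-939, a Wnt inhibitor, replaced CHIR-99021 before the CP cells were taken at day 5, and CM cells were taken at day 14 after culture without inhibitors and then with B27. No sorting of the cells is described in the labels, and the labels number the replicates without saying whether they were separate differentiations, so the spread between replicates may be technical. In bulk samples such as these, fewer cells with an open site cannot be told apart from a weaker signal per cell.

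The peak lists held 55777 (CM replicate 2) to 156179 (MES replicate 2) peaks, and the number of reads computed from each library's background ran from 34.3 M (CM replicate 2) to 62.3 M (ESC replicate 2). Where the local background was at the library's own level, the lowest listed fold was 2.63 to 3.13, depending on the library, and some peaks were listed at lower folds. Both regions at the start of NANOG, a pluripotency factor, were present in ESC and MES and in neither CP nor CM. Of the other pluripotency genes checked, the region at POU5F1 was present until CP, and TDGF1 and LIN28A each still had 1 of 3 regions in CM. The region at the start of MYH6, the alpha myosin heavy chain of heart muscle, was present only in CM. Of 4 regions at the start of GATA4, a cardiac transcription factor, 0 were present in ESC and 4 in CM. The regions at the starts of the mesoderm genes TBXT, EOMES and MIXL1 and of the heart genes HAND1 and ACTN2 were present at every stage, ESC included, as was 1 of 2 at TNNT2, and TTN had 1 of 4 in ESC and 2 of 4 later, so most of these did not set the stages apart.

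Open regions away from promoters are often enhancers, which are bound by transcription factors and act on genes at a distance. GATA factors bind GATA-containing DNA and can open chromatin in early mesoderm and endoderm, and GATA4, GATA5 and GATA6 are central to heart formation. TALE homeodomain proteins (MEIS and PBX) bind beside cardiac factors, TEAD proteins are the DNA-binding partners of YAP and TAZ in the Hippo pathway, MEF2 proteins drive muscle genes, and T-box proteins include TBXT and EOMES of the primitive streak as well as TBX5 and TBX20 of the heart.

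Absence from ESC meant absence from the overlap of both ESC lists, and this is where the kept regions were least uniform. Of the 2321, 1042 (44.9%; 95% Wilson interval 42.9 to 46.9) had no peak in either ESC library. A further 1108 (47.7%) had a peak in ESC replicate 2 only, the library with the most reads, whereas 152 (6.55%) had one in ESC replicate 1 only and 19 (0.819%) had peaks in both that did not overlap. These ESC peaks had low folds: the median was 4.02 in ESC replicate 2 (quartiles 3.38 and 4.83) and 3.97 in ESC replicate 1. Over all peaks of these libraries the median folds were 4.62 and 5.07. By −log10 q they were not weak, with a median of 9.28 for those in ESC replicate 2 only. Kept regions with an ESC peak had a median −log10 q of 8.78 in CM replicate 2, where they counted as present. The share with no ESC peak was 61.5% among MES-only regions and 73.8% among CP-CM regions. In all, 1279 kept regions (55.1%) thus had some listed signal at day 0, and the main results are given with and without them. With ESC replicate 2 alone standing for ESC, 1194 regions met the rule, and with CM replicate 1 alone standing for CM, 5002 did.

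Windows of 200 bp around the midpoints of 10 kept regions are shown, since sequence was not used to choose the regions and the words in it set them apart from regions that opened at mesoderm and were lost. Capitals mark matches to the GATA, TALE, TEAD and MEF2 motifs on either strand. Each region is named by the nearest start of a protein-coding gene, with the distance of the midpoint from it, which does not show that the region acts on that gene. Sequences are from the plus strand of hg38, the build of the peak lists. The first 3 lie near genes of cardiac transcription factors (TBX20, MEF2C, NKX2-5), the next 2 near genes of a BMP ligand and a Wnt receptor, then 3 are among the 10 kept regions with the highest weakest-library signal (near HAPLN1, PODXL and ALPK2), 1 lies within TNNI1, a sarcomere gene, and the last is among those that differed most between CM and MES. They were chosen as illustrations after their values and words were seen, and 9 of the 10 hold a GATA word and 9 a TALE word, against 51.8% and 24.7% of all kept regions.
TBX20, 78.1 kb upstream, chr7:35332092-35332291: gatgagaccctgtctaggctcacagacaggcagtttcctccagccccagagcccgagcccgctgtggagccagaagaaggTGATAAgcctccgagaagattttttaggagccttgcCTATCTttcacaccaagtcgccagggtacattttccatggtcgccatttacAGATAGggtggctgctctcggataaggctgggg
MEF2C, 225 kb upstream, chr5:89129250-89129449: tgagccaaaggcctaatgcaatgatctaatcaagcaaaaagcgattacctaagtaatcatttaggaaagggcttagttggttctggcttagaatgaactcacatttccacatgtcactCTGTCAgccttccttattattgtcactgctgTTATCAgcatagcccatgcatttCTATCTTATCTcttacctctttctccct
NKX2-5, 10.5 kb upstream, chr5:173245663-173245862: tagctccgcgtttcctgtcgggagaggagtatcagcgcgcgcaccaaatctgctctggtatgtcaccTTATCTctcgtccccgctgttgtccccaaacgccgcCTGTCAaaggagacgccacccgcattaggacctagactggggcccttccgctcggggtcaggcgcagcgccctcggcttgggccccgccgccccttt
BMP2, 192 kb upstream, chr20:6575977-6576176: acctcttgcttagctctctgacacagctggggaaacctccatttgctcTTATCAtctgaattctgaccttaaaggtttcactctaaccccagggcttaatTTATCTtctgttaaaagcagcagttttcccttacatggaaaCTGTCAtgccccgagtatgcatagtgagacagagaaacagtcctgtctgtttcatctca
FZD8, 129 kb upstream, chr10:35770978-35771177: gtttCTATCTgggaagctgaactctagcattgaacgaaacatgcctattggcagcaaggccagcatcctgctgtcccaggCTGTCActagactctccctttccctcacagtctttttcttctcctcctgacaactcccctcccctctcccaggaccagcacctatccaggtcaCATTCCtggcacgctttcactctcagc
HAPLN1, 205 kb upstream, chr5:83926146-83926345: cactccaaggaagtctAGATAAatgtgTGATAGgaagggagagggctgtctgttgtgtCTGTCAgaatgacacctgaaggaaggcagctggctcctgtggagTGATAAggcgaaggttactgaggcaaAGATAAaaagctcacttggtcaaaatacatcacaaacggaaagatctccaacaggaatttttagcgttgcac
PODXL, 29.8 kb upstream, chr7:131586305-131586504: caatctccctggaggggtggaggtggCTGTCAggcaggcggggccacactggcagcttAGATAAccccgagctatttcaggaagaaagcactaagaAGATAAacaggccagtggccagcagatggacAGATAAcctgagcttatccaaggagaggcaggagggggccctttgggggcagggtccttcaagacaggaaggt
ALPK2, 81 bp upstream, chr18:58629072-58629271: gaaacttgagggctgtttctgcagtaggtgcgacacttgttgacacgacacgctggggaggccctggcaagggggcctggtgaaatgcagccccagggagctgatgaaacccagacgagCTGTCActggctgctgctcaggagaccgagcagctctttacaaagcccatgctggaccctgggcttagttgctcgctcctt
TNNI1, 3.31 kb downstream, chr1:201426460-201426659: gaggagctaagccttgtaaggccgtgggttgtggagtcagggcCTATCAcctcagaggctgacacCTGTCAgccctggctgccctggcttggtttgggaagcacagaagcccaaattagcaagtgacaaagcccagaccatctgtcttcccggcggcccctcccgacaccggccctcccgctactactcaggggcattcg
PDHA2, 759 kb downstream, chr4:96598523-96598722: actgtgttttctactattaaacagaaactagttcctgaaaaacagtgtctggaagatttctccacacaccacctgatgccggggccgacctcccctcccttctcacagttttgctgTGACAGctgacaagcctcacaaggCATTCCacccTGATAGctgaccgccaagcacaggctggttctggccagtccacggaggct

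The window near TBX20 held 3 GATA words within it, the window near HAPLN1 held 4 and a TALE word, and the window near MEF2C held 3 and a TALE word. The windows near FZD8 and PDHA2 each held a GATA, a TALE and a TEAD word. These are matches of letters and are not evidence that a protein was bound.

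Kept regions were neither the strongest nor the weakest open sites of their libraries. Their median fold over background was 5.12 and 5.93 in the MES replicates, 4.99 and 7.38 in those of CP, and 4.74 and 5.04 in those of CM. These medians stood between the 46.0th (CM replicate 2) and the 74.8th (CP replicate 2) percentile of all peaks in the same library. Regions present at all 4 stages were stronger in every library, with medians of 7.23 and 7.94 (MES), 6.57 and 8.30 (CP) and 5.91 and 6.22 (CM). The kept regions with no ESC peak were in turn stronger than those with one, at 5.43 against 4.85 in MES replicate 1 and 8.07 against 6.82 in CP replicate 2. Replicates of a stage differed with a pooled SD of 0.22 (MES), 0.30 (CP) and 0.24 (CM) on the log2 scale.

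**Figure D1:**
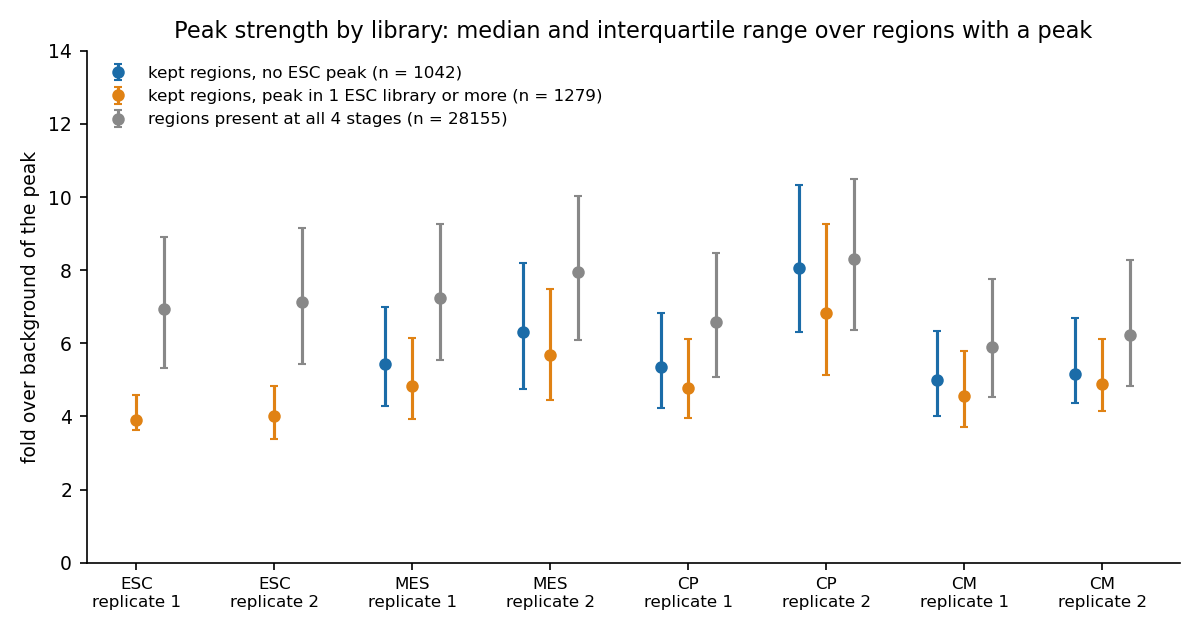
Fold over background (vertical axis) in each of the 8 libraries (horizontal axis) for kept regions with no ESC peak, kept regions with a peak in 1 ESC library or more, and regions present at all 4 stages; points are medians and bars the quartiles over regions with a peak in that library. The ESC peaks of kept regions lay near 4-fold, below those of the same regions at later stages, and in each MES, CP and CM library the order was regions present at all 4 stages, kept regions with no ESC peak, kept regions with one.

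The rule asked for a peak in all 6 libraries of MES, CP and CM, so the weakest library decided whether a region was kept. That library was CM replicate 2, the one with the fewest reads, for 991 regions (42.7%), and MES replicate 1 for 515 (22.2%). CP replicate 2 was the weakest for only 27 (1.16%). The −log10 q of the weakest library had a median of 6.63 and ran from 2.81 to 46.1. Just inside the rule were regions near CCDC34, ADAMTS12 and CUL5, whose weakest −log10 q were 2.81, 3.01 and 3.05. Just outside it were MES-CP regions with a peak in 1 CM library: of 7177 such regions, 2734 (38.1%) had one in CM replicate 1 only, the strongest being near ACADSB with a −log10 q of 84.0 there. On the ESC side, the strongest ESC replicate 2 peak inside a kept region had a −log10 q of 60.9 and lay near CDK16.

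The rule did not use sequence, and the kept regions differed in it from MES-only regions, which opened at the same time and were lost. A GATA word (AGATAA or TGATAA or AGATAG or TGATAG) was found in the 200 bp window of 1202 kept regions (51.8%), of 37.8% of MES-only regions and of 26.0% of all merged regions. The TALE word TGACAG was found in 24.7% of kept regions, 15.4% of MES-only regions and 15.6% of all. The TEAD word GGAATG was found in 17.1%, 11.7% and 14.0%, and a MEF2 match in 1.21%, 0.760% and 1.13%, in the same order. The T-box word AGGTGT went the other way, with 11.3% of kept regions against 19.5% of MES-only regions and 12.5% of all. Over all kept regions, GATA, TALE, TEAD and MEF2 were thus more frequent than in MES-only regions, and the T-box word was less frequent. MES-CP regions had 40.8% for GATA, 17.8% for TALE, 12.2% for TEAD, 0.613% for MEF2 and 14.2% for T-box. Regions present in MES and CM alone (658) had 40.1%, 17.9%, 14.6%, 3.34% and 15.3% in the same order, so their MEF2 share was above that of kept regions. The GATA share was 69.1% in kept regions with no ESC peak and 37.7% in those with one. The latter was near the share of MES-only regions, which were not split and of which 61.5% had no ESC peak. These shares are not adjusted for GC content, whose median was 55% in kept regions with an ESC peak and 50% in MES-only regions. With and without an ESC peak, the shares were 22.1% and 27.9% for TALE and 17.4% and 16.8% for TEAD. They were 1.33% and 1.06% for MEF2 and 10.3% and 12.6% for T-box.

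These 5 motifs were the ones that passed the test among 16 compared, in a logistic regression over all 138383 regions with GC content and nearness to a gene start as covariates, standard errors clustered by 23 chromosomes and Benjamini-Hochberg adjustment over the motifs. The log2 odds ratio of kept against MES-only regions was 1.30 for GATA (95% interval 1.16 to 1.43, adjusted p = 1.42e-14). It was 0.88 for TALE (SE 0.06, adjusted p = 2.79e-12), 0.70 for TEAD (SE 0.09, adjusted p = 8.42e-07) and 1.02 for MEF2 (SE 0.23, adjusted p = 0.000573). For T-box it was −0.92 (SE 0.14, adjusted p = 7e-06). The GATA difference lay between 0.59 and 2.09 under 24 other settings, and with the MES fold of each region as a further covariate it was 1.22. The other words searched were CATCTG (HAND and TWIST E-box), TGANTCA (AP-1), TNAAGTG (NKX), TAATTA (homeobox), ATGCAAAT (octamer), ATTGTT (SOX), ATCAAAG (TCF and LEF), TGTTTAC (forkhead) and GGGCGG (GC box), with the CArG box and CTCF as degenerate patterns, all on both strands. Some can share letters, as ATTGTT and TGTTTAC do, or TAATTA inside a MEF2 match.

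**Figure D2:**
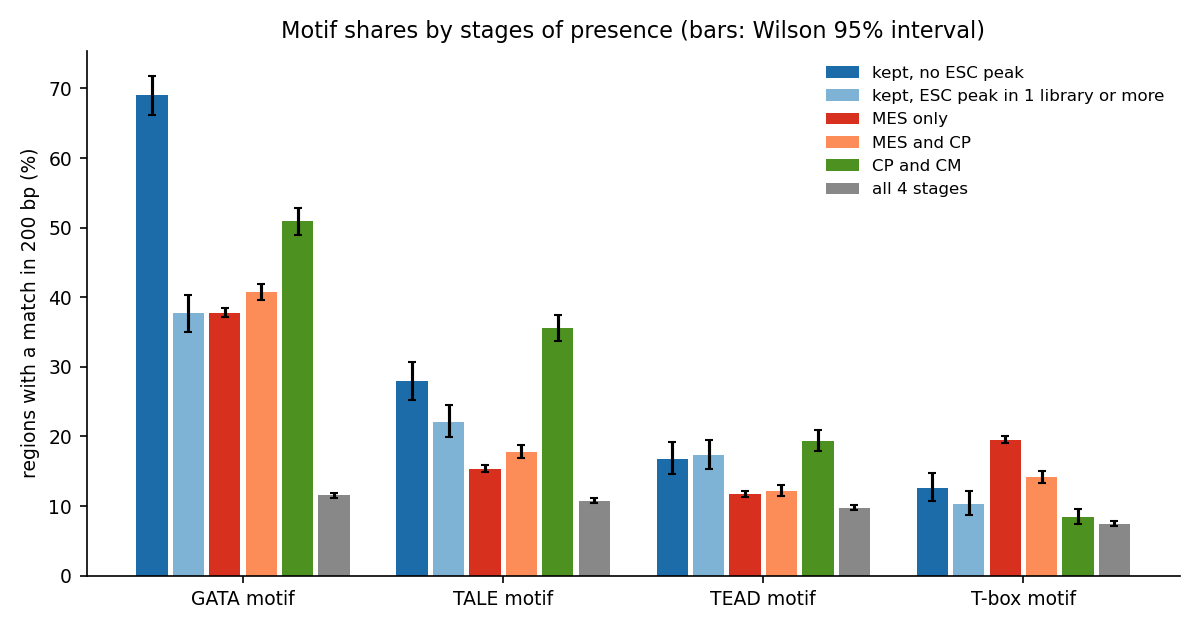
Share of regions with a match in the 200 bp window (vertical axis, percent) for 4 motifs (horizontal axis) in 6 classes of regions; bars carry 95% Wilson intervals, which cover counting error only. GATA reached 69.1% in kept regions with no ESC peak and 37.7% in those with one, the T-box share was highest in MES-only regions at 19.5%, and the TALE share was highest in CP-CM regions at 35.6%.

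Against CP-CM regions, which opened a stage later and were also kept, the order of the motifs was different. TALE was less frequent in the kept regions (24.7% against 35.6%, log2 odds ratio −0.68, SE 0.08, adjusted p = 2.48e-07), and so was MEF2 (1.21% against 2.10%, −0.72, SE 0.22, adjusted p = 0.0092). NKX, the word of NKX2-5 and its relatives, was found in 11.1% against 14.2% (adjusted p = 0.0237) and in 9.42% of all regions. The T-box word was more frequent in the kept regions than in CP-CM regions (11.3% against 8.42%, 0.52, SE 0.16, adjusted p = 0.0097), so that they lay between the MES-only and the CP-CM regions in T-box and in TALE alike. Forkhead, the word of FOX proteins, was found in 5.39% against 3.07% (0.96, SE 0.21, adjusted p = 0.00144) and in 3.77% of all regions. GC box (12.5% against 6.05%, all regions 17.0%, adjusted p = 0.00327), AP-1 (8.92% against 7.22%, all regions 7.84%, adjusted p = 0.0195) and CTCF (1.55% against 0.388%, all regions 2.90%, adjusted p = 0.00513) were also more frequent. TEAD did not pass the test (17.1% against 19.4%, interval of the log2 odds ratio −0.44 to 0.16). Of the 23 alternatives run, the call was lost under 12 for AP-1, 10 for NKX and 9 for MEF2.

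The GATA share of all kept regions was nearly that of CP-CM regions (51.8% against 50.9%, log2 odds ratio 0.31, SE 0.08, adjusted p = 0.00327), and this small difference depended on the ESC peaks. Against all CP-CM regions, which were not split and of which 73.8% had no ESC peak, it was 1.10 for the kept regions with no ESC peak. For the kept regions with one it was −0.32. The split was tested within the kept regions, as a comparison added after the values had been seen. GATA was found in 720 of 1042 kept regions with no ESC peak (69.1%) and in 482 of 1279 with one (37.7%), a log2 odds ratio of 1.43 (SE 0.10, adjusted p = 1.39e-11). CTCF, the word of the insulator protein, was found in 3 regions (0.288%) against 33 (2.58%) in the same regression (−3.42, SE 0.83, adjusted p = 0.00376). None of the other 14 motifs passed, TALE among them (27.9% against 22.1%, adjusted p = 0.149). The CTCF excess over CP-CM regions was not seen in the kept regions with no ESC peak (−0.48). That value rests on few matches, 3 of 1042 regions against 10 of 2577 CP-CM regions.

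GATA words were often repeated within a window. Of the kept regions, 705 (30.4%) held 1, 362 (15.6%) held 2 and 135 (5.82%) held 3 or more, against 26.3%, 8.42% and 3.04% of MES-only regions. CP-CM regions were close to the kept regions, with 33.2%, 13.7% and 4.04%, and all regions had 19.6%, 5.05% and 1.38%. Among kept regions with no ESC peak, 24.5% held 2 and 10.2% held 3 or more. AGATAA made up 864 of the words in kept regions (45.9%), TGATAA 537 (28.5%), AGATAG 279 (14.8%) and TGATAG 201 (10.7%). GATA and TALE were found together in 303 kept regions (13.1%), against 5.32% of MES-only, 16.8% of CP-CM and 4.45% of all regions. GATA and TEAD were found together in 222 (9.56%), against 4.41% of MES-only, 10.4% of CP-CM and 4.04% of all regions. At least 1 of GATA, TALE, TEAD and MEF2 was found in 1605 kept regions (69.2%), and in 83.0% of those with no ESC peak. The share was 54.3% in MES-only regions, 76.3% in CP-CM regions and 46.1% over all regions. These 4 were picked because the fit called them higher in kept than in MES-only regions, so the excess over MES-only regions is no further support.

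The matches were concentrated at the midpoints of the regions. In kept regions GATA words occurred at 4.11 per kb in the central 200 bp and at 2.10 per kb more than 300 bp away, a ratio of 1.95, and in those with no ESC peak the ratio was 2.65. The ratio was 2.40 for TALE and 1.43 for TEAD. The T-box word showed no such centring in kept regions (ratio 1.02), whereas in MES-only regions it did (1.90) and GATA and TALE did so less (1.26 and 1.28). In CP-CM regions the ratio was 2.91 for TALE and 1.69 for GATA. Kept and MES-only regions thus differed at their centres while their flanks held GATA words at nearly the same density (2.10 and 2.17 per kb).

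**Figure D3:**
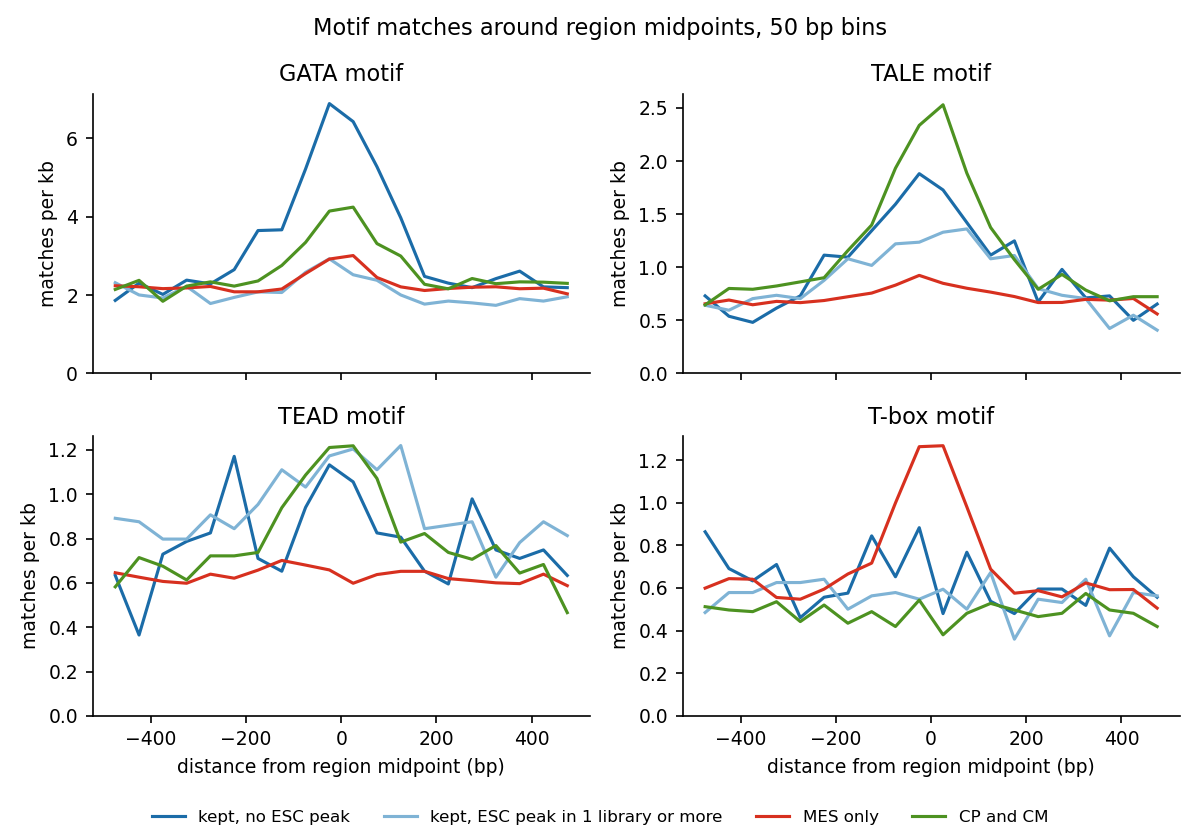
Matches per kb (vertical axes) in 50 bp bins by distance from the region midpoint (horizontal axes, bp) for the GATA, TALE, TEAD and T-box motifs, in kept regions with and without an ESC peak, MES-only regions and CP-CM regions. GATA stood above its flanks most in kept regions with no ESC peak (5.95 per kb in the central 200 bp against 2.25 in the flanks), TALE most in CP-CM regions (2.17 against 0.746), and T-box in MES-only regions (1.13 against 0.594).

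Most kept regions lay away from promoters. Introns held 1168 (50.3%), 733 (31.6%) lay between genes, and 176 (7.58%) lay within 1 kb of the start of a protein-coding gene, against 14.9% of all regions, 4.86% of MES-only regions and, of those open at every stage, 49.7%. The median distance to the nearest coding start was 41055 bp (quartiles 11856 and 123237), and 693 (29.9%) were more than 100 kb away. The regions were 434 bp wide at the median. In 2151 that held 1 peak per library, the summits of the MES replicates lay 28 bp apart at the median. Those of the CM replicates lay 39 bp apart, with 58.8% within 50 bp. The distance between MES replicate 1 and CM replicate 1 was close to that between the CM replicates, at 40 bp, with 57.6% within 50 bp. In regions open at all 4 stages the same distance between MES and CM was 24 bp, with 74.0% within 50 bp. There the CM replicates lay 27 bp apart.

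The promoter members were mostly sites with some ESC signal. Of the 176, 37 (21.0%) had no ESC peak, against 1005 of the other 2145 (46.9%). Chosen after their values were seen, those with the highest weakest-library −log10 q lay at the starts of ALPK2 (38.9), a kinase gene active in heart, MITF (30.2), a transcription factor gene, and ELAPOR2 (29.0). Promoter members of the cardiac program included GATA4, with 1 region 128 bp upstream of 1 annotated start that had an ESC replicate 2 peak and another 94 bp downstream of a different annotated start with no ESC peak, and MYL7 and MYL4, the genes of atrial myosin light chains, neither with an ESC peak. FOXC1, a mesoderm forkhead factor, had one 67 bp upstream, with an ESC replicate 2 peak.

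By nearest coding gene, the kept regions fell to 1852 of 19618 genes (9.44%), of which 1501 had 1 and 267 had 2. The genes with the most were AUTS2 (6 of the 123 regions nearest to it), and BCOR, CSMD1, GATA6, GSE1, PODXL, SOX4 and UQCRFS1 with 5 each, followed by 17 genes with 4, among them GATA4, TBX20, NR2F2 and HAS2. Most of these have many open regions of any class, 108 for BCOR and 121 for CSMD1. GATA6 had 28, so that 5 of them (17.9%) were kept regions, against 1.68% over all regions. GATA4 had 4 of 28 and TBX20 4 of 34. Such shares were not particular to cardiac transcription factor genes, as STK10 had 4 of 16 (25.0%), BHLHE40 3 of 17 (17.6%) and JADE1 4 of 29 (13.8%).

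Genes were also grouped in 14 lists. Cardiac transcription factors had a kept region for 19 of 29 genes, and kept regions made up 39 of the 886 regions nearest to them (4.40%), of which 25 had no ESC peak. Mesoderm surface receptors had one for 11 of 13 genes (19 of 413 regions, 4.60%). Mesoderm transcription factors (9 of 234 regions, 3.85%) and Wnt signalling (20 of 534, 3.75%) came next, and neural ectoderm markers, of a lineage this protocol does not aim for, had 7 of 208 (3.37%). The other lists with 5 or more kept regions were mesenchyme and matrix (19 of 661, 2.87%), sarcomere (6 of 214, 2.80%), BMP and TGF-beta signalling (15 of 604, 2.48%), the Hippo pathway (5 of 201, 2.49%) and calcium and ion channels (6 of 300, 2.00%). Endothelial, epicardial and smooth muscle, endoderm and pluripotency markers had 4, 2, 1 and 2. The share over all coding genes was 1.68%, but the listed genes have more regions than most, with a median of 28 per cardiac transcription factor against 3 over all genes, and no test was made of the lists.

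The 10 kept regions with the strongest signal in their weakest library had folds of 6.65 or more in each MES, CP and CM library. The first, in an intron of ITPR1, a calcium release channel, had folds of 9.28 and 10.1 in the MES replicates, then 8.82 and 11.9 (CP) and 8.91 and 9.76 (CM), with no ESC peak. The region 83.7 kb upstream of TCF4, an E-protein gene, had 10.7 and 12.5 (MES), 11.4 and 13.5 (CP) and 10.1 and 10.2 (CM), with 3.74 in ESC replicate 2. At the start of ALPK2 the folds were 9.35 and 10.3, 7.88 and 11.1, and 9.66 and 10.5. The folds of MES and CM overlapped near ITPR1 and ALPK2, and near TCF4 both CM values were just below both MES values. The region 205 kb upstream of HAPLN1, a matrix link protein gene, whose window holds 4 GATA words, had 8.76 and 10.1 (MES), 9.22 and 11.0 (CP) and 8.06 and 9.35 (CM). The region 129 kb upstream of FZD8, a Wnt receptor gene, was strongest in MES, at 13.2 and 14.8, against 11.3 and 12.1 (CP) and 9.16 and 11.2 (CM). The other 5 of the top 10 lay near CCNL1, CSMD1, PODXL, EFNA5 and C8B, and none of the 10 passed the test between CM and MES described next.

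Strength was compared between stages with limma on the log2 fold of each region in the 6 libraries, centred on the regions present at all 4 stages, over the 30476 regions present in MES, CP and CM whether in ESC or not, with p-values adjusted over all of them. Differences are therefore relative to regions open throughout, whose own median log2 fold went from 2.85 and 2.99 in the MES replicates to 2.56 and 2.64 in the CM replicates. Of the 2321 kept regions, 1784 passed in no comparison, and the CM minus MES difference was within 0.5 on the log2 scale for 1534 (66.1%), with a median SE of 0.19. Between CP and MES, 117 kept regions (5.04%) were higher in CP, against 0.614% of all fitted regions, and 9 (0.388%) were lower, against 0.184%. Between CM and CP, 22 (0.948%) were higher, against 0.240%, and 30 (1.29%) lower, against 1.13%. Between CM and MES, 352 (15.2%) were higher, against 4.65%, and 131 (5.64%) lower, against 4.70%. The share called higher was above that of all fitted regions in each comparison, while the share called lower between CM and CP was close to it. These shares are bounded by the rule, since a region that fell below the listing limit in any of the 6 libraries was not kept. Kept regions had lower folds than regions open throughout, so they had less room to fall before leaving the set. What this adds to the difference in shares was not tested. Of those higher in CM than MES, 80 were also called higher in CP than MES and 13 higher in CM than CP.

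More kept regions were higher than lower in CM, and the direction of this balance depended on the scaling. The median CM minus MES difference was 0.19 in kept regions and 0.11 in all fitted regions. Without centring these medians were −0.13 and −0.21, and the calls were 41 higher and 179 lower. With quantile normalization they were 223 higher and 138 lower. There the medians were 0.11 and 0.05. Centring moves every region of a library by the same amount, so it could not change the gap between these medians. Only quantile normalization could have changed it, and with it kept regions still stood above all fitted regions at the median. The counts also depended on single libraries: 71 were higher and 28 lower in CM than in MES without CM replicate 2, 140 and 31 without MES replicate 1, 130 and 25 without MES replicate 2, and 162 and 66 without CM replicate 1. Between CP and MES, 20 were higher without CP replicate 2 and 248 without CP replicate 1. Kept regions with no ESC peak had 169 higher (16.2%) and 78 lower (7.49%).

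The 5 kept regions with the largest rise were at 3.53-fold to 4.98-fold in MES and at 8.56-fold to 13.3-fold in CM. The region 372 kb upstream of SLIT2, an axon guidance gene also active in heart, had folds of 4.07 and 4.66 (MES), 6.20 and 15.0 (CP) and 12.1 and 13.0 (CM) (1.85 on the log2 scale, SE 0.23, limma adjusted p = 0.000819), with 4.27 in ESC replicate 2. An intron of CORIN, the protease that activates natriuretic peptides in heart muscle, held one with 3.84 and 4.98, 8.70 and 15.2, and 10.8 and 12.1 (1.71, SE 0.18, limma adjusted p = 0.000381). An intron of AGPAT4, an enzyme of phospholipid synthesis, held one with 4.36 and 3.85, 8.86 and 13.1, and 10.4 and 11.5 (1.74, SE 0.17). The region 759 kb from PDHA2 rose from 4.52 and 4.64 to 11.2 and 13.3 (1.74, SE 0.30) and the one 47.1 kb from ZNF622 from 3.53 and 3.57 to 8.56 and 9.95 (1.70, SE 0.18). In each, both CM values were above both MES values. The SLIT2, AGPAT4 and CORIN regions were already called higher in CP than in MES, the ZNF622 region was called higher in CM than in CP (1.00), and the PDHA2 region passed in neither single step, with CP replicates of 5.34 and 17.2.

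The 5 largest falls started between 10.6-fold and 17.9-fold in MES and ended between 3.40-fold and 5.65-fold in CM, where they were still listed as peaks. The region 99.6 kb upstream of CALN1 had 15.2 and 16.0 (MES), 11.1 and 9.52 (CP) and 3.77 and 3.67 (CM) (−1.75, SE 0.18, limma adjusted p = 0.000381). The region in an intron of GALNTL6, nearest to GALNT7, had 16.5 and 17.9, 11.3 and 12.3, and 5.21 and 5.65 (−1.34, SE 0.13). The region at the start of DNAH9, a dynein gene of motile cilia, had already fallen by CP, with 14.3 and 10.6, 4.92 and 5.34, and 3.40 and 4.19 (−1.38, SE 0.21). The regions near RASGEF1B and C1orf87 fell by 1.29 and 1.28. All 10 kept their direction under each alternative that included them. CORIN, CALN1, RASGEF1B and C1orf87 were not in the fit limited to a −log10 q of at least 5 in all 6 libraries, and the PDHA2 region lost its call without centring and without CM replicate 2.

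**Figure D4:**
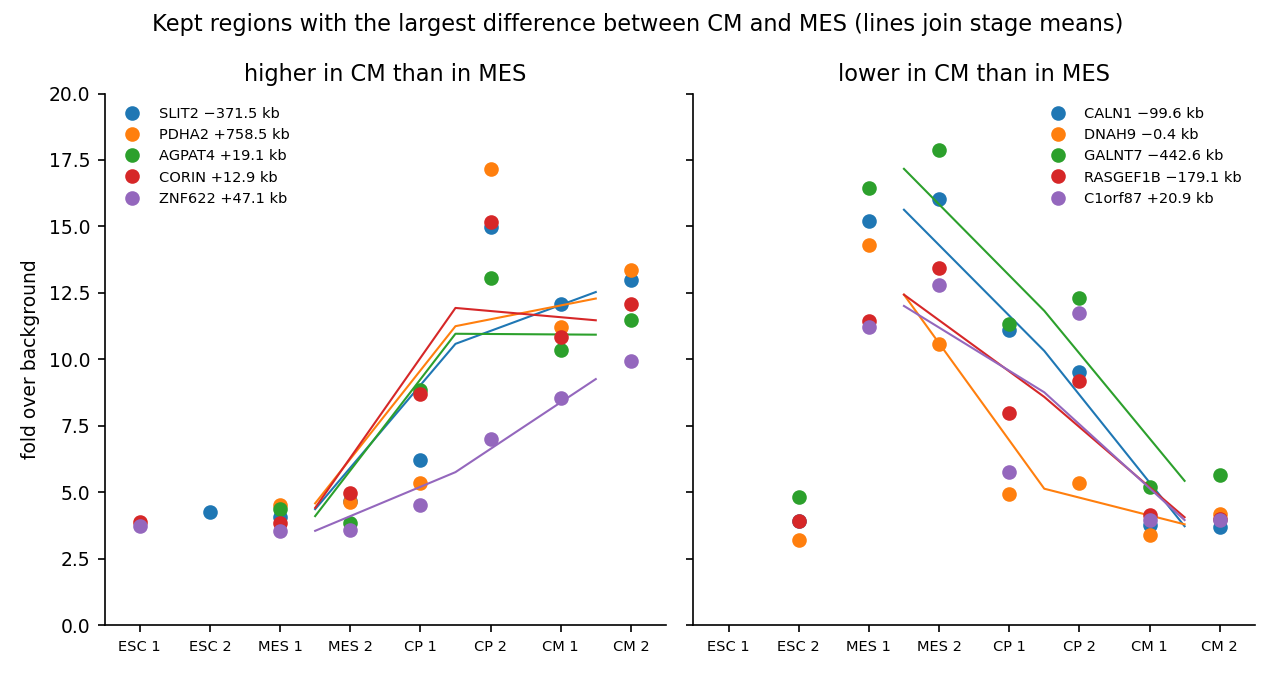
Fold over background (vertical axis) in each library (horizontal axis) for the 5 kept regions with the largest rise (left) and the 5 with the largest fall (right) from MES to CM; points are single libraries, missing ESC points mean no listed peak, and lines join the means of the stages. The rising regions lay between 3.53 and 4.98 in MES and between 8.56 and 13.3 in CM, with widely split CP replicates for SLIT2 and PDHA2.

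Of 39 regions near cardiac transcription factor genes, 10 were higher in CM than in MES and 2 lower, with a median difference of 0.40 against 0.11 over all fitted regions. These counts and those of the lists that follow stand against 15.2% higher and 5.64% lower over all kept regions and 4.65% and 4.70% over all fitted regions. Without centring 1 was higher and 2 lower, and with quantile normalization 4 and 2. The largest rise of the list was 98.5 kb upstream of HAND1, a factor of the early heart, with folds of 3.42 and 3.11 (MES), 7.14 and 11.4 (CP) and 5.92 and 8.08 (CM) (1.41, SE 0.20, limma adjusted p = 0.00168). The region 212 kb upstream of TBX20 rose later, from 4.07 and 5.25 through 4.27 and 8.29 to 7.63 and 9.62 (1.21, SE 0.22), while the one 78.1 kb upstream had 8.33 and 9.85, 7.74 and 9.50, and 8.76 and 8.04 and did not pass (0.21, SE 0.15). The TBX20 gene had 4 kept regions, none with an ESC peak, and 2 of them were called higher.

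The 5 kept regions near GATA6 also differed among themselves. The one in its own gene, 23.4 kb downstream of the start, rose from 6.01 and 6.22 in MES to 7.89 and 7.12 in CM (0.62, SE 0.17, limma adjusted p = 0.036), with 4.81 in ESC replicate 2. The one 125 kb upstream fell from 6.90 and 8.04 to 3.29 and 3.66 (−0.78, SE 0.21, limma adjusted p = 0.0322). The one 190 kb upstream rose by a just passing 0.75 (limma adjusted p = 0.0492), and those 149 kb and 189 kb upstream did not pass, at 0.64 and 0.41. In GATA4 the region 94 bp downstream of an annotated start rose from 3.36 and 3.81 to 4.64 and 5.10 (0.76, SE 0.17, limma adjusted p = 0.0167), and the other 3 did not pass. The region 225 kb upstream of MEF2C stayed between 8.39 and 13.2 in all 6 libraries and the one 10.5 kb upstream of NKX2-5 between 3.50 and 4.90. The region 84.2 kb upstream of IRX3 was the other that fell (−0.66, SE 0.18). MEIS1, a TALE gene, had one that was highest in CP, with 5.43 and 6.28, 7.48 and 13.9, and 4.67 and 3.67, and was called lower in CM than CP (−1.02, SE 0.21, limma adjusted p = 0.0328).

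Against 15.2% of all kept regions higher and 5.64% lower, 9 of 19 regions near mesenchyme and matrix genes were higher in CM than in MES and 0 lower, with a median of 0.39, and 3 were already called higher in CP. Without centring 1 was higher and 3 lower, and with quantile normalization 8 and 0. The region 481 kb from CDH11, a mesenchymal cadherin gene, had 5.20 and 5.67 (MES), 12.4 and 16.4 (CP) and 10.6 and 9.61 (CM) (1.22, SE 0.14, limma adjusted p = 0.000623), with peaks in both ESC libraries that did not overlap. In TNC, a matrix glycoprotein gene, the values were 3.85 and 4.43, 6.94 and 13.4, and 7.29 and 6.87 (1.10, SE 0.20). Regions near COL5A2 (0.94), HAS2 (1.04 and 0.85), PRRX1 (0.97), SNAI1 (0.79) and CDH2 (0.69) were the others beside a second CDH11 region (0.72). These are genes of fibroblast-like cells, and some are active in developing heart muscle as well. The paper describes its cardiomyocytes as highly pure by staining for cardiac troponin T. The part of fibroblast-like cells in these CM libraries was not tested. Among epicardial and smooth muscle markers, 1 of 2 was higher (MYH11, 0.80), and the 4 near endothelial and blood markers did not pass, with 0.69 near CDH5 and −0.16 to 0.19 near RUNX1.

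Of the 6 regions near sarcomere genes, 3 were higher in CM than in MES and 1 was lower, too few to set against the 15.2% and 5.64% of all kept regions. TPM1, the tropomyosin gene, had one that went from 3.48 and 3.86 through 3.97 and 7.48 to 7.59 and 6.84 (1.30, SE 0.21, limma adjusted p = 0.0033). At the start of MYL7 the folds were 2.53 and 3.47, 3.29 and 4.93, and 4.15 and 4.03 (0.79, SE 0.18), and near MYL4 4.19 and 4.00, 4.98 and 10.7, and 6.40 and 7.26 (1.06, SE 0.23). The region 4.09 kb upstream of ACTC1, the cardiac actin gene, went down, from 6.93 and 6.76 to 3.11 and 3.31 (−0.77, SE 0.18, limma adjusted p = 0.0199). Those in TNNI1 and near FHL2 did not pass. Without centring only the ACTC1 region passed. Of the 6 regions near calcium and ion channel genes 1 was higher, near HCN4, the pacemaker channel (0.78).

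Signalling genes had regions that moved both ways. Of 15 near BMP and TGF-beta genes, 4 were higher and 5 lower (15.2% and 5.64% of all kept regions), and BMP2, a ligand that patterns cardiac mesoderm, had 1 and 2 of these. Without centring 0 were higher and the same count of 5 lower. The one 192 kb upstream of BMP2 had 10.0 and 8.72 (MES), 8.44 and 12.6 (CP) and 11.1 and 11.7 (CM) (0.61, SE 0.15, limma adjusted p = 0.025). The one 144 kb upstream fell from 10.9 and 13.8 through 8.12 and 6.97 to 4.49 and 6.22 (−0.89, SE 0.20), and the one 380 kb downstream from 11.3 and 12.5 to 5.92 and 5.09 (−0.79, SE 0.16). The others lower were near SMAD7, ID2 and BMPER, and the others higher near LTBP1 (1.36, SE 0.24), ID2 and SMAD7. Of 20 near Wnt genes 2 were higher, both near the receptor gene ROR2, and 2 lower, both near FZD8, one of them falling from 14.7 and 16.1 in MES to 7.05 and 9.54 in CP (CP minus MES −0.87, SE 0.13, limma adjusted p = 0.0077). Without centring, as with quantile normalization, 0 of the 20 were higher and 2 lower by limma between CM and MES. Near PDGFRA, a receptor of early mesoderm, the folds were 3.84 and 5.67, 11.9 and 11.4, and 8.78 and 8.84 (1.24, SE 0.19, limma adjusted p = 0.00231), whereas 2 near CXCR4 fell by 0.64 and 0.70. Of the 19 regions near mesoderm surface receptor genes, 5 were higher in CM and 3 lower (15.2% and 5.64% of all kept regions), and without centring 1 and 3. The 2 called higher near ROR2 are counted here and among the Wnt genes. In the Hippo list 1 of 5 was higher, near TEAD1 (1.10, SE 0.22).

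Of the 9 regions near mesoderm transcription factor genes, 1 was higher and 1 lower in CM. The region 26.6 kb upstream of TBXT had 8.12 and 8.70 (MES), 6.87 and 10.3 (CP) and 5.45 and 7.76 (CM), which was a difference of −0.05 (SE 0.18) relative to regions open throughout. The region within MESP2, a factor of nascent mesoderm, fell from 6.80 and 8.16 through 4.58 and 5.41 to 3.34 and 3.36 (−0.83, SE 0.18, limma adjusted p = 0.0128). The promoter region of FOXC1 was the one higher, at 0.75 (SE 0.18). Without centring its call was lost, as were the single higher calls near HCN4, TEAD1, MYH11 and LIN28A. The 7 regions near neural ectoderm genes had differences between −0.36 and 0.34 and the one within the endoderm gene HNF4A 0.24, and none of these passed. Of 2 near pluripotency genes 1 was higher, near LIN28A (0.94, SE 0.17), while the one 469 kb from SOX2 had 0.34 and did not pass.

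The regions that rose and fell differed in their words. A T-box word was found in 31 of the 352 kept regions higher in CM (8.81%; 95% Wilson interval 6.27 to 12.2), in 11.0% of the 1838 with neither call and in 30 of the 131 lower in CM (22.9%; 16.5 to 30.8). TALE went the other way, with 30.1% (25.6 to 35.1), 24.3% and 16.0% (10.7 to 23.3), and so did TEAD, with 21.0% (17.1 to 25.6), 16.9% and 9.92% (5.89 to 16.2). MEF2 was found in 11 of 352 (3.13%), 0.925% and 0 of 131, which allows up to 2.85% by the Wilson bound. GATA had nearly the same share in the regions higher and lower in CM, with 58.5%, 49.9% and 59.5% in the same order. Without centring the T-box shares were 12.2% of 41 and 26.8% of 179, those of TALE 36.6% and 16.2%, and with quantile normalization 10.3% and 25.4% for T-box and 34.5% and 15.2% for TALE, so the order held under each scaling for these, while that of GATA turned (48.8% and 58.7% without centring, 65.0% and 58.0% with quantile normalization). The shares are descriptions, with intervals for counting error and no test. Of the regions higher in CM, 10.8% lay within 1 kb of a coding start, against 1.53% of those lower.

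**Figure D5:**
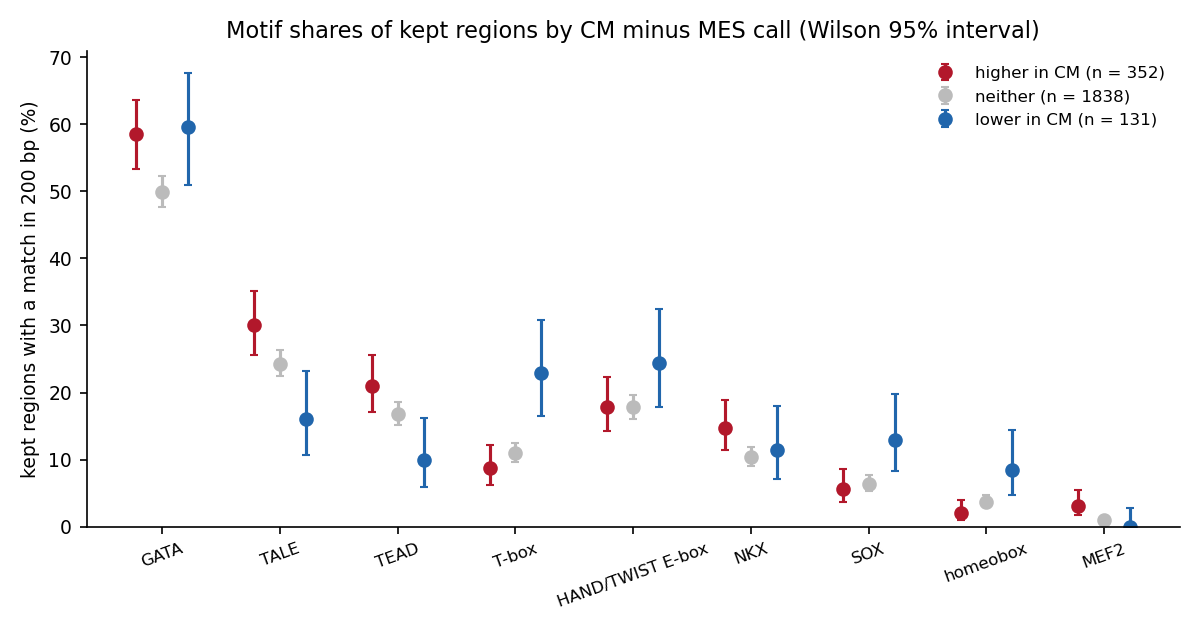
Share of kept regions with a match in the 200 bp window (vertical axis, percent) for 9 motifs (horizontal axis), by whether the region was higher in CM than in MES (352), neither (1838) or lower (131); bars are 95% Wilson intervals for counting error. T-box, SOX and homeobox words were most frequent in the regions lower in CM (22.9%, 13.0% and 8.40%), TALE and TEAD words in those higher (30.1% and 21.0%).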

How the data were processed

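ATAC-seq was performed on RUES2 cells at 4 stages with 2 libraries each. Per the labels and the study's methods, the authors aligned reads to hg38 with BWA 0.7.13, removed duplicates with Picard, and called peaks on each library alone with MACS2 2.1.0, without a control or a fragment model, with reads extended to 200 bp. The deposited narrowPeak files give, for each peak, a fold over background (a ratio), −log10 p and −log10 q values, a score and a summit offset. The fold of the strongest peak in a region was its value in a library, and the score was not used.

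Stage sets, merged regions and presence were computed with bedtools 2.31.1, and each region was placed by its midpoint against GENCODE 44 gene models, with sequence from the hg38 genome. The members and the gene lists were chosen with earlier results of these data known. Motif matches were counted in the central 200 bp on both strands and compared by logistic regression over all regions, with GC content, its square and nearness (1 kb) to a coding start, and errors clustered by chromosome. The regression was written for the purpose, and statsmodels 0.14.6 made its Benjamini-Hochberg adjustment. Fold was compared on the log2 scale, with no pseudocount, by limma 3.58.1 (trend) with Benjamini-Hochberg adjustment at 0.05. Both were tested on simulated data with known answers. Wilson intervals (95%) cover counting error only. Reads per library were computed from the background in fold and p-value, for an assumed genome of 2.7 Gb.

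The regions named were the 10 with the highest −log10 q in their weakest library, those nearest to genes of the 14 lists (some are not reported here), the 5 with the largest difference in each direction between CM and MES among those that passed, and those nearest the limits of the rule. Alternatives were other overlaps, thresholds, windows and scalings, single libraries left out, and, added after the data were seen, lists of 1 replicate and a split by ESC peaks.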

Additional observations from a re-analysis of the deposited data

How the results depend on the processing

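The choice of kept regions rested on how replicates were joined. Their number was 6397 with the union of replicates, 5828 with replicate 1 lists at every stage and 1042 with ESC peaks in either library barred, the last 2 chosen after seeing the data, and from 1194 (without ESC replicate 1) to 5002 (without CM replicate 2) with 1 library left out. The share with an ESC peak (55.1%) became 0% with the union, 69.2% with 50% reciprocal overlap, 59.7% with a −log10 q of at least 5, 81.0% with lists of equal length, 64.9% with presence over at least 50% of the region, 52.9% and 11.0% with replicate 1 and replicate 2 lists, and 12.7% to 56.6% with 1 library left out. GATA, TALE, TEAD and T-box kept their direction and call against MES-only regions under 24 alternatives, and MEF2 lost its call under 4. The count of motifs higher (4) was 7 with the union and with at least 50% of the region, and 3 to 8 with 1 library left out. The count lower (1) was 5 over the whole region, 2 with the union, at least 50% of the region, either replicate's lists, no ESC peak or no covariates, and 1 to 2 with 1 library left out. Against CP-CM regions, the count higher (6) was 3 with 50% reciprocal overlap and, in members alone or in both sets, with no ESC peak, and 3 to 8 with 1 library left out, and the count lower (3) was 1 with −log10 q of at least 5, a 100 bp window or the whole region, and 1 to 4 with 1 library left out. GATA against CP-CM turned to −0.17 with lists of equal length and −0.32 in kept regions with an ESC peak. It lost its call under 6 alternatives. CTCF turned to −0.48 in kept regions with no ESC peak, of which 3 held a match. TALE against CP-CM kept its direction and call under all 23.

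The strength calls in kept regions moved more. Without centring, 0 were higher and 0 lower between CP and MES by limma, where 455 had an unadjusted p under 0.05, 0 were higher between CM and CP (525 at that p), and 41 were higher between CM and MES. Quantile normalization gave 55 higher between CP and MES, 12 higher between CM and CP and 223 higher between CM and MES. The −log10 q in place of the fold gave 215 higher and 17 lower, then 53 and 47 between CM and CP, and a −log10 q of at least 5 gave 14 higher between CM and CP and 84 lower between CM and MES. With 1 library left out, the counts ran from 20 to 248 higher and 2 to 20 lower between CP and MES, 0 to 29 and 0 to 73 between CM and CP (both 0 without CM replicate 2, with 408 at that p), and 71 to 499 and 25 to 182 between CM and MES. Deviations from the stage mean in replicates of the same number correlated weakly between MES and CP (0.18) and hardly between MES and CM (0.0056) or CP and CM (0.0057). A replicate block gave 177 higher and 21 lower between CP and MES, 39 and 64 between CM and CP, and 435 and 167 between CM and MES. The cause of these shifts was not tested. CM replicate 2, the library with the fewest reads, was the weakest for 42.7% of kept regions.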

Other observations

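Kept regions were spread over the genome. They made up 1.30% (chromosome 4) to 2.16% (chromosome 17) of the merged regions of a chromosome, and 395 (17.0%) had another kept region within 50 kb, against 469 of 2577 CP-CM regions (18.2%).

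Regions 1 library short of the rule were common. Among CP-CM regions, 893 (34.7%) had a peak in MES replicate 2 only, and among MES-CM regions 389 of 658 (59.1%) had one in CP replicate 2 only. With 2 libraries a stage and fold over background as the measure, differences under the replicate spread were not detectable, and nearest genes do not show which gene a region acts on.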
